A study of Mus musculus with 17 samples.

Results

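The genes described here build the ciliary axoneme and carry cargo along it. They were every gene whose symbol begins with Dnah, Dnaic, Dnaaf, Cfap, Rsph, Tekt or Ift followed by a number, and 74 of the 16410 genes in the tumor cell table met this rule. The same names were then looked up in tables of TRMs and MDMs, the tissue-resident and monocyte-derived macrophages of the tumors, where 36 of 13545 and 34 of 13407 genes belonged to them. The 3 tables together named 17555 genes. By family the tumor cell table held 15 dynein heavy chains (Dnah), 2 dynein intermediate chains (Dnaic), 4 dynein assembly factors (Dnaaf), 25 cilia and flagella associated proteins (Cfap), 7 radial spoke proteins (Rsph), 5 tektins (Tekt), 14 intraflagellar transport subunits (Ift) and 2 antisense genes, Dnah2os and Ift88os.

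Motile cilia beat because dynein arms slide the doublet microtubules of the axoneme past each other, and radial spokes, tektins and the Cfap proteins regulate or brace that structure. Intraflagellar transport trains, built of the IFT-A and IFT-B complexes, move components in and out of both motile and primary cilia. In the airway, multiciliated cells carry motile cilia under the control of Foxj1 and RFX factors, whereas most other cells make at most a primary cilium, so most dynein, spoke and tektin genes are markers of multiciliated cells and IFT genes are used more widely.

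RNA came from cells of lung tumors on a C57BL/6 background. KL mice (KrasLSL-G12D/+ Lkb1fl/fl) and KLG4 mice (KrasLSL-G12D/+ Lkb1fl/fl Gpx4m/m) both received adenoviral Cre (Ad-Cre) through the nose and then tamoxifen, and were sampled 10 weeks after Ad-Cre. Gpx4m carries exons between rox sites, and DreERT2 is made from a CAG promoter at that locus only after Cre has removed a STOP cassette, so deletion requires both agents. Each population of each genotype had 2 libraries, 12 in all, which a figure legend of the study counts as mice for tumor cells. The labels do not say whether libraries of one genotype came from separate mice, so the spread that p-values measure may be technical, and the KLG4 tumor cell libraries were the closest pair. The study gives the tumor cell gate as EpCAM+ and CD31- with CD45- where the populations are shown and with CD45.2+ in its sorting methods.

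Depth recovered from the values was 15.9 to 36.6 M counted reads per tumor cell library, 9.14 to 26.8 M per TRM library and 10.4 to 26.1 M per MDM library. Gpx4, counted over all exons, was at 56.4 and 61.9 RPKM (reads normalized for gene length and library depth) in KLG4 tumor cells against 94.95 and 76.8 in KL ones. In TRMs it was at 53.8 and 57.0 against 89.8 and 88.2 RPKM, and in MDMs it was at 93.6 and 97.7 in KLG4 against 44.9 and 71.3 in KL, so the MDM libraries labelled KLG4 were the higher. The KLG4 tumor cell libraries also had higher levels of markers of other cells, with leukocyte markers summing to 326 and 331 RPKM against 26.6 and 37.7 RPKM. The source of that RNA was not tested. Of 10 genes each, 9 pan-epithelial and 9 AT2 genes were lower in KLG4, where 19.6% of all genes were. Among 10 AT1 genes 8 were lower and 1 higher, and 1 of the lower ones, Rtkn2, met the filter only through KL. The reads of mitochondrial genes, nuclear copies included, were 14.8% and 14.7% of all in KLG4 tumor cells and 7.39% and 8.27% in KL ones, and with scaling outside them Ift46 had a log2 fold change of -0.57 (limma adjusted p = 0.053) and Ift88os of -0.52 (0.089), in place of -0.68 and -0.62. In bulk RNA, fewer cells of a type and less RNA per cell cannot be told apart. Among tumor cell libraries, KL replicate 1 stood apart for the ciliary genes, as described below, and results are therefore given against each KL library as well.

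Ciliary genes were abundant in all 4 tumor cell libraries. In KL tumor cells 30 of the 74 averaged at least 10 RPKM and 63 averaged at least 1 RPKM. The highest was Rsph1, a radial spoke head protein, at 147 and 202 RPKM in KL replicates 1 and 2 and at 211 and 197 RPKM in KLG4 replicates 1 and 2. Cfap53, an axonemal protein needed for left-right patterning, was at 85.9 and 132 RPKM in KL against 118 and 106 RPKM in KLG4. The groups overlapped for both genes, and KL replicate 1 was the lowest library.

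The next levels were those of Ift43 and Cfap36. Ift43, a small subunit of IFT-A, was at 91.9 and 95.5 RPKM in KL tumor cells, without overlap with the levels of Cfap36, which were 56.2 and 65.4 RPKM. Its range did overlap with that of Cfap53, so those neighbours in the order were not separated. Tekt1, a tektin of the doublet microtubules, was the highest of its family at 36.1 and 55.2 RPKM in KL against 57.8 and 64.7 RPKM in KLG4.

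Dynein heavy chains were the lowest family per kilobase. Their median was 0.803 and 1.76 RPKM in the KL libraries and 1.73 and 2.18 RPKM in the KLG4 ones, and the highest of them, Dnah10 of the inner arms, reached 2.49 and 6.02 RPKM in KL against 6.62 and 6.52 RPKM in KLG4. The intermediate chains Dnaic1 and Dnaic2, which anchor the outer arm, were higher than any heavy chain in every library, with Dnaic1 at 8.32 and 14.5 RPKM in KL against 17.7 and 16.3 RPKM in KLG4. Dnah14 had the lowest KL mean of all 74 genes, at 0.0589 and 0.0692 RPKM in KL against 0.0908 and 0.0619 RPKM in KLG4.

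**Figure D1:**
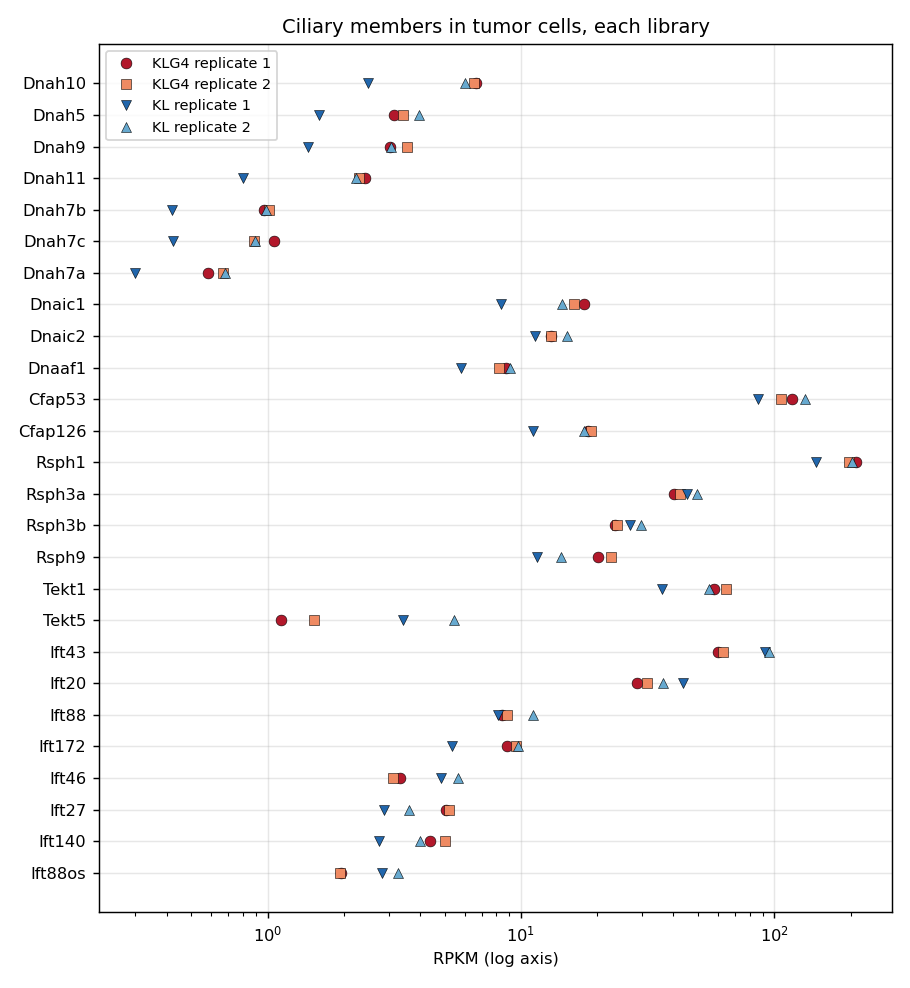
RPKM (log axis) of 26 ciliary genes in tumor cells, 1 marker for each of the 2 KLG4 (circle, square) and 2 KL (triangles) libraries, ordered by family. KL replicate 1 is the leftmost marker for all dynein genes shown. Both KLG4 markers are to the left of both KL markers for Tekt5, Ift43, Ift46, Ift20, Ift88os, Rsph3a and Rsph3b.

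Multiciliated cells read many ciliary promoters through the X-box, the site bound by RFX factors. RefSeq promoter windows (GRCm38.p6, 250 bases before to 50 bases after a gene start) were found for 59 of the 74 genes by symbol. The pattern GTNNCCNNNGNAAC was searched on both strands, and it was present in 10 of the 59 genes. It occurred in 15.2% of their 66 windows and in 2.17% of all 32851 windows. The shorter GTTGCCA, which can overlap the start of that pattern, was in 18.2% of the windows of ciliary genes and in 4.38% of all windows. The matches to the longer pattern whose flanks also end before the start are shown 5′ to 3′ on the strand of the gene, with the match or its reverse complement in capitals, because genes of several families share them.

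Cfap206: cgcgttccGTTTCCACGGTTACgcgactgc
Cfap44: ggagggacGTTGCTATGGCAACcgcagtaa
Dnah17: acgcccttGTCACCAGCGCAACcacagata
Ift22 distal: ctgtcaggGTTTCCTGGGCTACtgcgcagc
Ift22 proximal: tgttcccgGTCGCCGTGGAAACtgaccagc
Ift57: cgggtctgGTTGCCGTGGTGACcggctgcc
Tekt4: ccccacctGTGTCCTGGGAAACaaactcat

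These stretches lie at chr4:34730208-34730237 (minus strand) for Cfap206, chr16:44394764-44394793 (plus) for Cfap44 and chr11:118129357-118129386 (minus) for Dnah17. The Ift22 stretches are chr5:136908079-136908108 and chr5:136908109-136908138 (plus), that of Ift57 is chr16:49699199-49699228 (plus) and that of Tekt4 is chr17:25471422-25471451 (plus). The remaining genes with a match, Cfap45, Cfap61, Dnaaf2 and Dnaaf5, had it close to or across the start, and Tekt4 had a further match there. A match is a description of letters, not a bound site. Rfx2, an RFX factor, was at 5.003 and 5.99 RPKM in KLG4 against 3.70 and 4.08 RPKM in KL tumor cells (log2 fold change 0.48, limma adjusted p = 0.079). Foxj1 was at 17.8 and 19.9 RPKM in KLG4 against 16.2 and 21.2 RPKM in KL (0.02, limma adjusted p = 0.93).

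The genotypes differ by the Gpx4m allele, and the first comparison asked how ciliary genes differed between KLG4 and KL tumor cells. Of the 65 ciliary genes that reached 1 RPKM in at least 2 libraries, 2 were higher and 4 were lower in KLG4 at an adjusted p under 0.05, which is 9.23% of them, while 40.3% of all 13770 genes tested passed in either direction. By direction, 3.08% of ciliary genes against 20.6% of all genes were higher, and 6.15% against 19.6% were lower. By the rule that the study states for its CD8+ T cells, p under 0.05 and a change of at least 2-fold, here with unadjusted limma p-values, 0 ciliary genes were higher where 16.6% of all genes were, and 1 was lower where 7.26% were. Without the fold limit 8 ciliary genes had an unadjusted p under 0.05, against 50.4% of all genes. The median over ciliary genes was 0.37 as a log2 fold change, against -0.09 for all genes tested. Every fold change was taken from log2(RPKM + 0.1), which understates the change of low genes.

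The genes that rose were Rsph9 and Ift27. Rsph9, a radial spoke head protein, was at 20.2 and 22.6 RPKM in KLG4 against 11.6 and 14.4 RPKM in KL (log2 fold change 0.72, SE 0.16, limma adjusted p = 0.019). Ift27, a small GTPase of IFT-B that also serves export of the BBSome, was at 5.04 and 5.21 RPKM against 2.89 and 3.63 RPKM (0.65, SE 0.18, limma adjusted p = 0.040). In both genes each KLG4 library lay above each KL library. In the coordinates of the tumor cell table (GRCm38) Rsph9 spans chr17:46122035-46144216 and Ift27 chr15:78159465-78174108, both on the minus strand.

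The genes that fell were Tekt5, Ift46, Ift88os and Ift43. Tekt5, a tektin best known from sperm flagella, was at 1.13 and 1.53 RPKM in KLG4 against 3.42 and 5.45 RPKM in KL (log2 fold change -1.64, SE 0.29, limma adjusted p = 0.0094). It was the ciliary gene that also met the 2-fold rule. Ift43 was at 60.0 and 62.5 RPKM against 91.9 and 95.5 RPKM (-0.61, SE 0.11, limma adjusted p = 0.0088), and its KL libraries were nearly equal. Ift46, a subunit of the IFT-B core, was at 3.32 and 3.12 RPKM against 4.84 and 5.64 RPKM (-0.68, SE 0.17, limma adjusted p = 0.027). Ift88os, which is antisense to Ift88 and was counted without strand, was at 1.94 and 1.93 RPKM against 2.82 and 3.26 RPKM (-0.62, limma adjusted p = 0.047). Tekt5 spans chr16:10357948-10395490 (minus strand), Ift43 chr12:86082561-86162458 (plus), Ift46 chr9:44767908-44793447 (plus) and Ift88os chr14:57506744-57510835 (minus). The Ift88os call was lost with looser filters, scaling outside mitochondrial genes, the gene length trend removed, limma-voom or the replicate block (adjusted p = 0.052 to 0.089) and without KL replicate 2 (0.068). These directions are relative to all counted reads, since centring on the pan-epithelial genes adds 0.89 to the log2 fold change of every gene alike, which leaves Tekt5 at -0.75 (limma adjusted p = 0.12) and the other 3 above 0. With the KLG4 libraries averaged as 1 sample none of the 6 genes was called, with limma adjusted p-values from 0.080 for Tekt5 to 0.26 for Ift88os.

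None of the heavy chains, intermediate chains or assembly factors passed. All 9 Dnah genes tested and Dnah2os had a positive log2 fold change, with a median of 0.69 and a range of 0.37 to 0.93, and limma adjusted p-values ran from 0.20 to 0.56. Dnah5, the outer arm heavy chain most often mutated in primary ciliary dyskinesia, was at 3.16 and 3.41 RPKM in KLG4 against 1.59 and 3.96 RPKM in KL, so that both KLG4 libraries lay between the KL ones. Dnah9 and Dnah11, also of the outer arm, were at 3.05 and 3.55 RPKM and at 2.41 and 2.29 RPKM in KLG4, against 1.45 and 3.07 RPKM and 0.803 and 2.24 RPKM in KL. For Dnah9 the groups overlapped and for Dnah11 they did not. Dnaic2 was at 13.2 and 13.1 RPKM in KLG4 against 11.4 and 15.2 RPKM in KL, and its difference on the log2 scale was -0.00075 and took either sign under other scalings. Dnaaf1, needed for the preassembly of dynein arms, was at 8.70 and 8.19 RPKM in KLG4 against 5.78 and 9.07 RPKM in KL.

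Among the Cfap, Rsph and Tekt families the calls were Rsph9 and Tekt5. Of 24 Cfap genes tested 19 had a positive log2 fold change, the median was 0.43 and none passed. Cfap126, a protein of motile cilia, was at 18.4 and 18.9 RPKM in KLG4 against 11.1 and 17.7 RPKM in KL (log2 fold change 0.40, limma adjusted p = 0.22). Cfap97 and Cfap161, named after their values were seen, had the lowest log2 fold changes in the family, at -0.61 and -0.46, with limma adjusted p-values of 0.13 and 0.17. Tekt4 was at 19.3 and 20.7 RPKM in KLG4 against 8.90 and 15.1 RPKM in KL (0.78, limma adjusted p = 0.064), and is named for its calls against each KL library below. Rsph1 and Tekt1 had log2 fold changes of 0.25 and 0.45 and limma adjusted p-values of 0.32 and 0.16.

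Intraflagellar transport genes were centred near the median of all genes, with a median of -0.11 on the log2 scale (-0.25 without KL replicate 1 and 0.09 without KL replicate 2), and 5 of the 15 values, from 14 subunits and Ift88os, were positive. Within IFT-A, Ift43 fell while Ift140 was at 4.36 and 4.99 RPKM in KLG4 against 2.76 and 3.98 RPKM in KL (0.48, limma adjusted p = 0.15) and Ift122 was at 1.72 and 1.49 against 1.06 and 1.86 RPKM. Within IFT-B, Ift20, a subunit also found at the Golgi, was at 28.8 and 31.4 RPKM in KLG4 against 43.6 and 36.4 RPKM in KL (-0.40, limma adjusted p = 0.070). Ift88, the subunit whose loss prevents ciliogenesis, was at 8.42 and 8.82 RPKM in KLG4 against 8.09 and 11.1 RPKM in KL. Ift172 was at 8.85 and 9.58 RPKM in KLG4 against 5.33 and 9.77 RPKM in KL (0.35, limma adjusted p = 0.39).

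**Figure D2:**
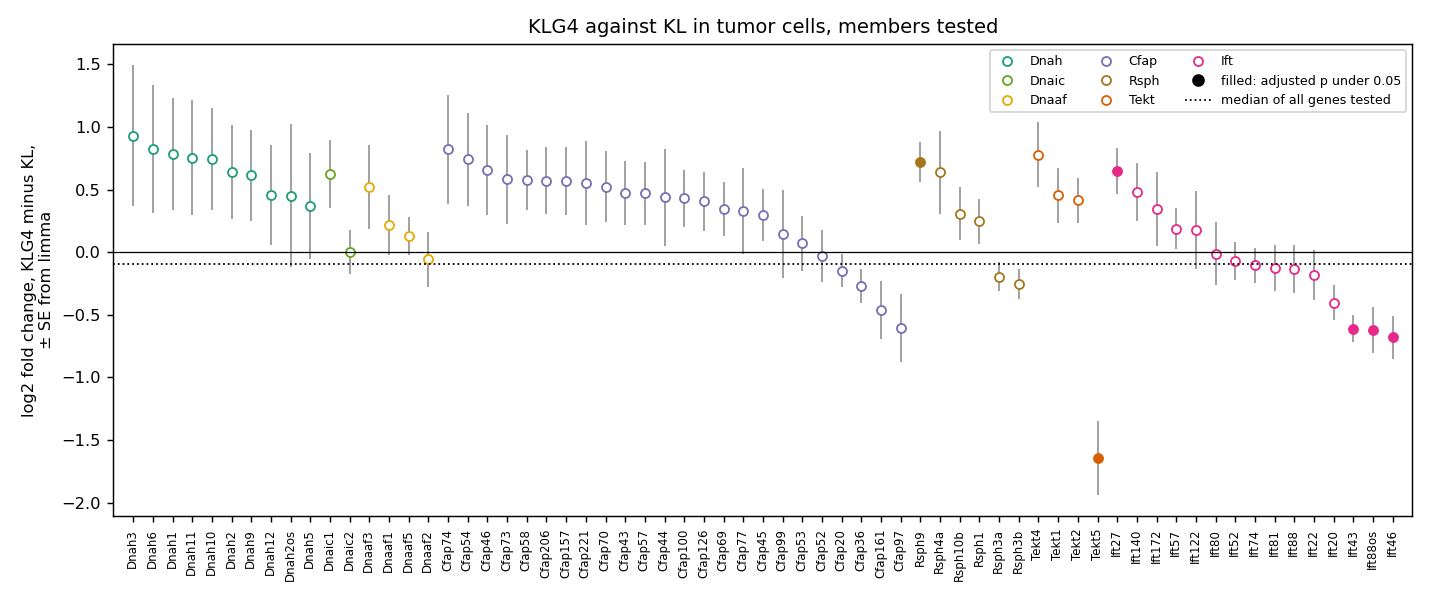
Log2 fold change (KLG4 minus KL, points) with its standard error from limma (bars) for the 65 ciliary genes tested in tumor cells, by family, with genes at an adjusted p under 0.05 filled and the dotted line at the median of all genes tested. The dynein heavy chains are all above 0 with wide bars, and the 6 filled points are Rsph9, Ift27, Tekt5, Ift43, Ift88os and Ift46.

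Of the 9 genes not tested, values ran from 0.0393 to 1.09 RPKM and from 16 to 597 reads. They were Dnah7a, Dnah7b, Dnah7c, Dnah8, Dnah14, Dnah17, Cfap61, Rsph14 and Tekt3. Dnah8, an outer arm heavy chain of sperm, was at 0.311 and 0.375 RPKM in KLG4 against 0.0393 and 0.0975 RPKM in KL. It was singled out after its values were seen and was not tested with the main filter. With a filter at a mean of 0.2 RPKM it was called higher (log2 fold change 1.41, limma adjusted p = 0.014). It met that filter only through KLG4, where its mean was 0.343 RPKM against 0.0684 RPKM in KL, so the call is no support. Of the 65 genes tested 0 had both KL libraries or both KLG4 libraries under 1 RPKM.

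KL replicates 1 and 2 differed for nearly every ciliary gene. KL replicate 1 was below KL replicate 2 in 64 of the 65 genes tested, whereas this held for 59.7% of all genes, and Ift20 was the exception. It was the lowest of the 4 libraries for 51 of the 65, against 34.9% of all genes. The median difference between KL replicate 1 and KL replicate 2 was -0.65 on the log2 scale for ciliary genes and -0.09 for all genes. It was -1.27 in Dnah, -0.75 in Cfap and -0.32 in Ift. The KLG4 libraries differed from each other by a median absolute difference of 0.094. A chi-square of recovered reads, which is near 1 per gene where libraries differ by counting error alone, was 3.28 between the KLG4 libraries and 60.4 between the KL ones. In macrophages it was 28.9 to 132. The KLG4 libraries were kept as 2 samples, and averaged as 1 they left 0 of the 65 genes called.

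Over all 65 genes the median difference between the KLG4 mean and KL replicate 2 was 0.0084, and between the KLG4 mean and KL replicate 1 it was 0.74, on the log2 scale. The Ift genes did not share this order, since their medians were -0.25 against KL replicate 2 and 0.09 against KL replicate 1, and KL replicate 1 was the lowest library for 8 of the 15. In Ift43, Ift46, Ift20 and Ift88os both KLG4 libraries were below KL replicate 1. Dnah3, an inner arm heavy chain, had the widest difference between the KL libraries among the genes tested, with 4.93 and 5.12 RPKM in KLG4, 4.85 RPKM in KL replicate 2 and 1.36 RPKM in KL replicate 1. Both KLG4 libraries were above both KL libraries for 41.5% of ciliary genes and 32.5% of all genes, and below for 16.9% and 42.2%.

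**Figure D3:**
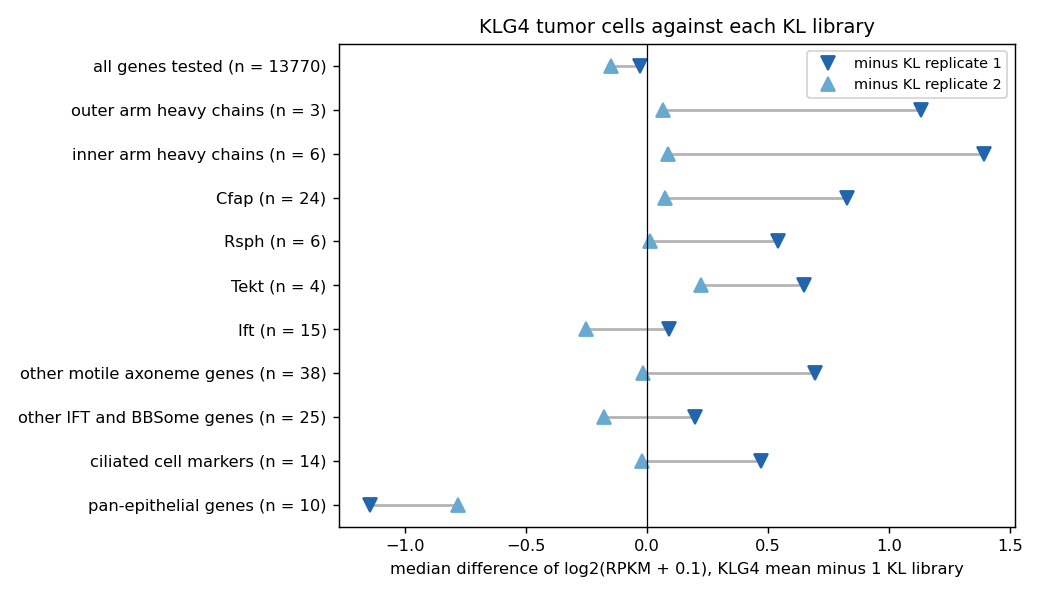
Median difference of log2(RPKM + 0.1) between the KLG4 mean and KL replicate 1 (downward triangles) or KL replicate 2 (upward triangles), for groups of genes in tumor cells with the number tested. Outer and inner arm heavy chains are at 1.13 and 1.39 against KL replicate 1 and at 0.07 and 0.09 against KL replicate 2, while the Ift genes are at 0.09 and -0.25.

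The number of ciliary genes called depended on which KL library was used. Without KL replicate 1, 15 were called, 3 higher and 12 lower, and the median log2 fold change was 0.0084, where 6697 of all genes were called. Without KL replicate 2, 45 were called, 41 higher and 4 lower, among them 9 of the Dnah genes and 19 of the Cfap genes, and the median was 0.74, where 7372 of all genes were called. In these fits the single KL library was assumed to vary like the KLG4 pair. Ift27, Rsph9 and Tekt4 were higher, and Ift43, Ift46 and Tekt5 lower, against either KL library alone, and no gene was called in opposite directions. Without either KLG4 replicate 1 or KLG4 replicate 2 no ciliary gene passed, where the spread came from the KL pair, and 1990 and 1927 of all genes did.

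Gene length moved with the difference between the KL libraries. Over all genes the median of KL replicate 1 minus KL replicate 2 went from 0.06 for genes of up to 2000 bases to -0.40 for genes above 12000 bases, and ciliary genes lay below that in every length class, from -0.54 in the shortest to -1.25 in the longest. With the trend on length removed, an alternative chosen after the data were seen, the median difference was -0.57 for ciliary genes and 0.03 for all genes. The part of length in the difference was not tested beyond this.

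**Figure D4:**
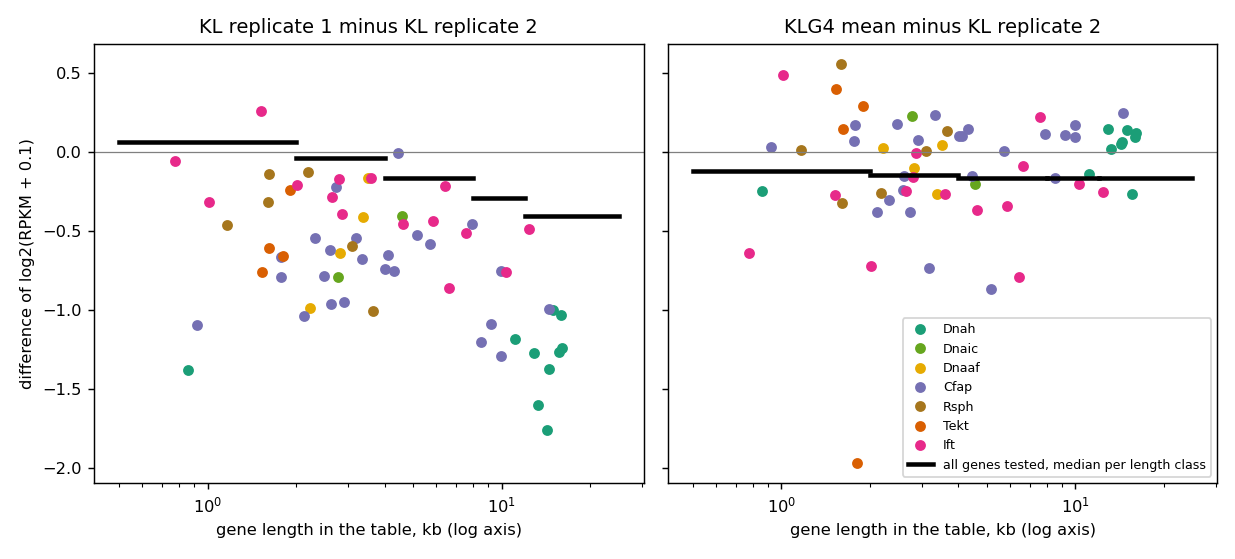
Difference of log2(RPKM + 0.1) for each ciliary gene tested (points, by family) against gene length in kb (log axis), for KL replicate 1 minus KL replicate 2 (left) and for the KLG4 mean minus KL replicate 2 (right), with the median of all genes per length class as black lines. On the left 64 of 65 points are below 0 and the long Dnah genes are lowest, and on the right most points scatter around 0, with Tekt5 far below.

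Other ciliary genes were also mostly lower in KL replicate 1 than in KL replicate 2, where 59.7% of all genes were. This held for 22 of 25 other IFT, motor and BBSome genes and for 8 of 10 multiciliogenesis regulators. Those 10 included Ccno and Plk4, which met the filter only through KLG4. Of 38 other motile axoneme and dynein assembly genes tested, all 38 were lower in KL replicate 1 than in KL replicate 2, and 1, Ccdc65 of the nexin-dynein regulatory complex, was higher in KLG4 (log2 fold change 0.65, limma adjusted p = 0.049), which is 2.63% against 20.6% of all genes. Of 25 other IFT, motor and BBSome genes, 2 were lower in KLG4, 8% against 19.6% of all genes. These were Kif3a, a subunit of the kinesin-2 motor, at 25.9 and 24.1 RPKM against 34.0 and 36.2 RPKM, and Dync2li1, a light intermediate chain of the retrograde dynein, at 19.5 and 21.0 RPKM against 27.4 and 31.4 RPKM (limma adjusted p = 0.025 and 0.026). All 14 ciliated cell markers were in the table and 0 were called by limma, where 40.3% of all genes were, with 0 at an unadjusted p under 0.05, against 50.4%.

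The markers of the cells in the tumor cell libraries are given beside these values. The summed level of the ciliated cell markers was 1220 and 1199 RPKM in KLG4, 884 RPKM in KL replicate 1 and 1309 RPKM in KL replicate 2. The summed pan-epithelial genes were at 3789 and 3806 RPKM in KLG4 against 8743 and 6521 RPKM in KL replicates 1 and 2, so that the KL library with the lower ciliary genes had the higher epithelial sum. Markers of club cells summed to 7894 and 8044 RPKM in KLG4 against 3805 and 4626 RPKM in KL, and 8 of 10 were called higher, where 20.6% of all genes were. Fibroblast markers, from cells that can carry primary cilia, summed to 1591 and 1499 RPKM in KLG4 against 152 and 155 RPKM in KL, and 4 of the 10 met the filter only through KLG4. The hedgehog pathway genes Gli1, Smo, Evc, Evc2 and Hhip also met it only through KLG4, so they are given without a test. Smo, the hedgehog signal transducer of the primary cilium, was at 2.62 and 2.58 RPKM against 0.423 and 0.659 RPKM. The part of these cells in the levels of the ciliary genes was not tested.

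Among multiciliogenesis regulators Ccno and Plk4 met the filter only through KLG4, so no count of calls is given for them. Ccno, a cyclin-like protein of multiciliogenesis, was at 2.57 and 1.84 RPKM in KLG4 against 0.582 and 0.423 RPKM in KL, as a description. E2f5, a partner of the multicilin complex, was at 3.56 and 3.24 RPKM against 5.26 and 5.40 RPKM (-0.63, limma adjusted p = 0.028).

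The macrophage tables held nearly all of the IFT genes and a smaller part of the motile families. The TRM table had 15 Ift entries, Ift88os included, and 21 of the other families, and the MDM table had 14 and 20. Of the 74 genes, 28 were in all 3 tables and 32 were in the tumor cell table alone, among them 8 Dnah genes and Dnah2os, 11 Cfap, 4 Rsph, both Dnaic and all 5 Tekt genes and no Ift gene. The authors left low genes out of each table, by different rules, and the level of a gene missing from a table is not known. Each table was normalized alone, so levels are set side by side without a test. Rsph1 was at 0.963 and 2.05 RPKM in KLG4 against 1.37 and 3.95 RPKM in KL TRMs, and at 4.02 and 2.94 RPKM in KLG4 against 3.05 and 2.65 RPKM in KL MDMs. The heavy chains in these tables were at 0.0284 to 0.359 RPKM in TRMs and at 0.0240 to 1.51 RPKM in MDMs. Of the 14 ciliated cell markers 3 were in each macrophage table, and Foxj1 was in neither.

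The highest in KL TRMs were Cfap36, Rsph3a, Ift20, Ift57 and Rsph3b. Cfap36 was at 29.998 and 33.2 RPKM in KLG4 against 32.7 and 36.3 RPKM in KL TRMs, and at 16.3 and 19.1 RPKM in KLG4 against 18.004 and 25.6 RPKM in KL MDMs. Ift57, a subunit of IFT-B, was at 27.2 and 27.5 RPKM in KLG4 against 19.1 and 22.1 RPKM in KL TRMs. Ift20 was at 22.2 and 19.8 RPKM in KLG4 against 23.8 and 20.9 RPKM in KL TRMs, below its levels in all 4 tumor cell libraries. Groups overlapped in TRMs for Cfap36 and Ift20 and did not for Ift57.

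**Figure D5:**
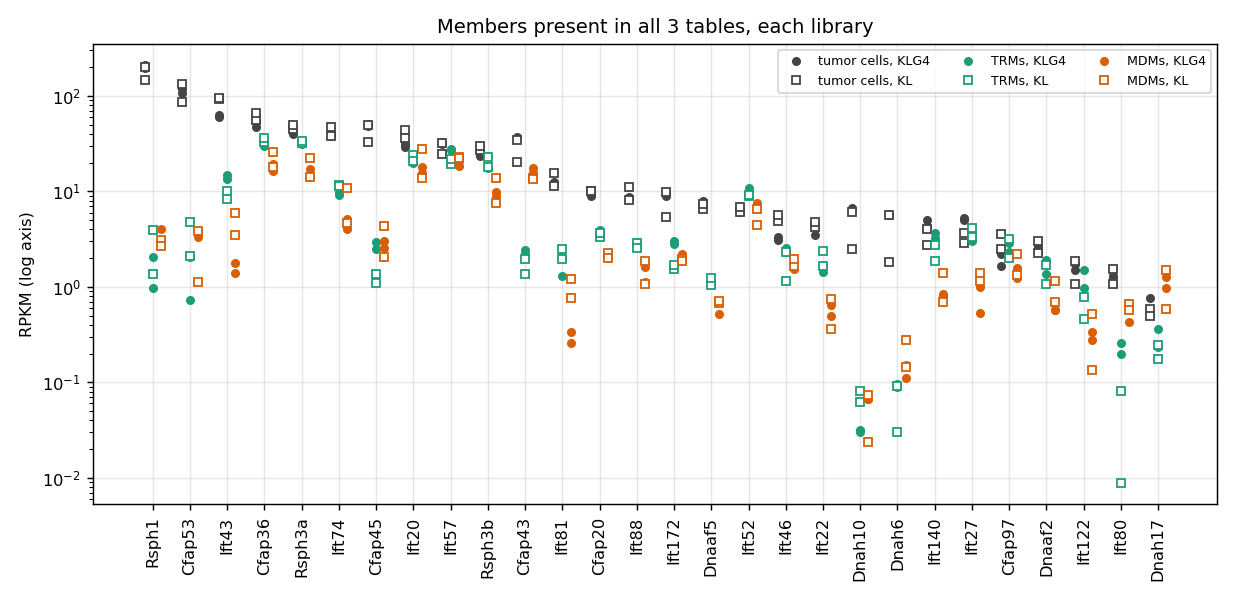
RPKM (log axis) of the 28 ciliary genes present in all 3 tables, ordered by their KL level in tumor cells, with KLG4 libraries as filled circles and KL libraries as open squares. Rsph1, Cfap53 and Dnah10 are far lower in both macrophage populations, whereas Ift57 and Ift52 are at 4.40 RPKM or more in every library. Cfap36 and Rsph3a are lower in TRMs than in tumor cells and lower again in MDMs.

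In TRMs 0 of the 23 ciliary genes tested passed in limma, where 1.8% of all 10990 genes did, 1.36% higher and 0.437% lower. At an unadjusted p under 0.05 there were 3, against 28.3% of all genes, and limma-voom on the recovered reads called 1, Cfap45. Both KLG4 libraries were above both KL libraries for 8 of the 23, where 53.7% of all genes were, and below for 3, where 8.95% were. Their median log2 fold change was 0.05 against 0.38 for all genes, and with TMM scaling it was -0.31 against 0.02. The share of reads from mitochondrial genes and their nuclear copies came to 2.95% and 5.78% for the KLG4 libraries and to 31.5% and 22.3% for the KL ones, and its part in this was not tested. Cfap45 was the gene that met the 2-fold rule, at 2.49 and 2.92 RPKM in KLG4 against 1.35 and 1.09 RPKM in KL (log2 fold change 1.09, limma adjusted p = 0.11), where 12% of all genes were higher and 2.04% lower by that rule. Ift43 was at 13.4 and 14.9 RPKM in KLG4 against 8.26 and 10.2 RPKM in KL (0.62, limma adjusted p = 0.13), and Ift172 was at 3.05 and 2.83 RPKM against 1.54 and 1.70 RPKM (0.82, limma adjusted p = 0.15). Xist was at 18.3 and 20.2 RPKM in the KLG4 and at 0.257 and 0.501 RPKM in the KL TRM libraries, so sex and genotype cannot be told apart here. KL replicate 1 was below KL replicate 2 for 18 of the 23 genes, against 69.3% of all genes, and lowest of the 4 libraries for 10, against 58%.

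In MDMs 0 of the 19 ciliary genes tested passed in limma, as did 0 of all 10475 genes (0%), and limma-voom called 0. At an unadjusted p under 0.05 there was 1, against 6.74% of all genes. That gene was Ift43, at 1.78 and 1.39 RPKM in KLG4 against 3.48 and 5.97 RPKM in KL (log2 fold change -1.48, SE 0.37, limma adjusted p = 0.68), which also met the 2-fold rule, as 3.07% of all genes did in that direction and 1.03% in the other. Both KLG4 libraries were above both KL libraries for 3 genes, against 25.4% of all genes, and below for 4, against 19.1%. Among the 4, Ift27 met the filter only through KL, with 0.531 and 0.987 RPKM in KLG4. KL replicate 1 was below KL replicate 2 for 10 of the 19, against 54.7% of all genes, and lowest for 5, against 26.6%. Without KL replicate 1, Ift43, Ift20 and Ift74 were lower and Cfap53 higher, 4 of 19 genes, where 2682 of all 10475 were called. Xist was at 0.839 RPKM in the remaining KL replicate 2 and at 19.4 to 21.8 RPKM in the other MDM libraries, so for these calls sex and genotype cannot be told apart. The pan-epithelial genes summed to 28.9 and 69.9 RPKM in KLG4 and to 86.4 and 277 RPKM in KL MDMs, highest in the library in which Ift43 was highest, and their part in the result was not tested.

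Some genes overlap others in the annotation, and how many reads they share was not measured. Counting ignored strand, so overlaps on either strand are included. Of the 74 genes 31 share exon bases with another gene of the GENCODE vM21 annotation (GRCm38), and 5 share at least 20%. Dnaaf2 shares the most, 71.4%. Cfap43 was counted over chr19:47737561-47919299, and 37.8% of its exon bases are exons of Itprip or Gm22240, both on the same strand. Itprip has no entry in the tables. Cfap43 was at 17.5 and 15.4 RPKM in KLG4 against 13.7 and 13.6 RPKM in KL MDMs and at 2.22 and 2.40 RPKM and 1.37 and 1.97 RPKM in TRMs, and its ratio to Cfap45 was 3.11 to 6.91 in MDMs and 0.613 to 0.767 in tumor cells. The part of the overlap in these levels was not tested.

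Some genes have close copies whose reads may be split between them. Rsph3a and Rsph3b lie apart on chromosome 17, and 52.6% of the 150-base windows of the longest Rsph3a transcript occur in Rsph3b. Their ratio, Rsph3b to Rsph3a, was 0.567 to 0.601 in tumor cells, 0.558 to 0.736 in TRMs and 0.530 to 0.632 in MDMs, and neither was called with all libraries. Without KL replicate 1 both were called lower in tumor cells, at -0.26 and -0.32 (limma adjusted p = 0.039 and 0.026). Rsph3a was at 40.2 and 42.4 RPKM in KLG4 against 45.3 and 49.4 RPKM in KL tumor cells, and Rsph3b was at 23.4 and 24.0 RPKM and 27.0 and 29.7 RPKM. Dnah7a, Dnah7b and Dnah7c share 4.88% to 7.78% of such windows pairwise, and each was at its lowest in KL replicate 1, at 0.299, 0.421 and 0.423 RPKM, against 0.681, 0.988 and 0.889 RPKM in KL replicate 2.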

How the data were processed

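RNA had been sequenced from 12 libraries, 2 for each genotype in tumor cells, TRMs and MDMs. A further 5 samples were not analysed here. The authors trimmed reads with Trim Galore 0.6.4, aligned them to the mouse genome (GRCm38) with HISAT2 2.0.5 and counted them without strand with featureCounts 2.0.0, as stated in the methods and processing notes. The authors deposited RPKM values, 1 table per population with low genes left out. The authors tested differences with DESeq2, per the methods. Columns holding the comparisons of the authors (fold changes with their tests, and in the macrophage tables a mean level) were not used.

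RPKM times gene length gave whole reads (tolerance 0.05) for at least 99.99% of values under 2000 reads, and depth was summed from these. Lengths stood in the tumor cell table and were carried to the others by gene name.

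Each table was fitted alone in limma 3.58.1 under R 4.3.3. The fit used log2(RPKM + 0.1), a variance trend on mean level and no covariates. A gene entered when 2 or more of the 4 libraries reached 1 RPKM. Tests were two-sided, with Benjamini-Hochberg adjustment over the table, and the procedure was tested on simulated data. Alternatives changed the pseudocount, filter, scaling, trend, replicate block and libraries, used limma-voom on recovered reads, or centred on pan-epithelial genes.

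Genes were named when called without overlap of groups, when on a list of well-known ciliary genes, when highest in their family or when listed as close copies. In macrophages those with an unadjusted p under 0.05 and at least a 2-fold change were named. Others were named after their values were seen. The members, lists and tests were chosen with earlier results of these data known.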

Additional observations from a re-analysis of the deposited data

Results flagged for a closer look

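Over 59 pairs of populations in which a ciliary gene was tested in both, 4 had both KLG4 libraries above both KL libraries in one population and below in the other. That is 6.78%, against 15.1% of the 29120 such pairs over all genes tested in both populations. For tumor cells it was 4.35% against 24.5% beside TRMs and 5.56% against 12.8% beside MDMs. Between TRMs and MDMs it was 11.1% against 7.18%. The differences between populations were not tested, because each table was normalized alone. Ift43 was lower in KLG4 tumor cells and higher in KLG4 TRMs, a difference in log2 fold change of -1.23, and it was higher in TRMs and lower in MDMs, a difference of 2.10. Ift27 was higher in KLG4 tumor cells (0.65) and lower in KLG4 MDMs (-0.71), a difference of 1.36. Ift57 was at 0.41 in TRMs and -0.22 in MDMs, a difference of 0.63. Only the tumor cell values of Ift43 and Ift27 were past an adjusted p under 0.05 in limma.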

How the results depend on the processing

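In tumor cells the 6 ciliary calls became 2 of 40 with a filter at a mean of 5 RPKM (3284 of all 7029 genes), 52 of 65 with centring on the pan-epithelial genes (7879 of all 13770) and 0 (1923 of all 13770) with the KLG4 libraries averaged as 1 sample. That alternative and those on gene length and nuclear copies were chosen after the data were seen. The filter at a mean of 5 RPKM left out Tekt5, Ift46, Ift27 and Ift88os, whose means were lower, and Rsph9 and Ift43 stayed called. With a filter at a mean of 0.2 RPKM, 3 of 73 were higher and 3 lower, since Ift88os was lost and Dnah8 was called. Without 1 library the count ran from 0 (without either KLG4 library) to 45 (without KL replicate 2), and the median log2 fold change from 0.0084 (without KL replicate 1) to 0.74 (without KL replicate 2). Centred on the pan-epithelial genes that median was 1.26, where the median of all genes was 0.80. In TRMs limma-voom called 1 gene, where it called 1938 of all genes, and the median was -0.35 with quantile scaling, -0.31 with TMM, -0.33 with scaling outside mitochondrial genes and nuclear copies and -0.29 with the length trend removed. In MDMs the count without 1 library ran from 0 to 4 (without KL replicate 1) and the median from -0.43 (without KL replicate 1) to 0.081 (without KL replicate 2).

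Centring on pan-epithelial genes added 0.89 to every gene of the tumor cell table, which gave 0.28 for Ift43, 0.21 for Ift46, 0.27 for Ift88os, 0.49 for Ift20, 0.76 for Ift88, 0.70 for Rsph3a, 0.64 for Rsph3b and 0.89 for Dnaic2. Single genes also changed sign elsewhere. Dnaic2 was at 0.042 with TMM, 0.065 and 0.11 with scaling outside mitochondrial genes without and with nuclear copies, 0.0036 with limma-voom and 0.098 with the length trend removed. Without 1 library the values ran from -0.20 to 0.20 for Dnaic2 (0.0031 without KLG4 replicate 2), -0.26 to 1.00 for Dnah5, -0.36 to 0.091 for Ift88, -0.085 to 0.78 for Ift172, -0.24 to 0.38 for Cfap53 (-0.0029 without KLG4 replicate 1) and -0.10 to 0.54 for Dnaaf1, and from -0.17 (without KL replicate 1) to 0.21 for Foxj1 (-0.057 without KLG4 replicate 2). Of the 6 calls, Ift43 was lost with the length trend removed (adjusted p = 0.066), Ift27 with limma-voom (0.080), Ift46 with scaling outside mitochondrial genes and nuclear copies (0.053), Tekt5 with centring on pan-epithelial genes (0.12) and Ift88os under 7 alternatives other than those on libraries or centring (0.052 to 0.089). The cause was not tested.

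With the replicate number as a block 6 genes were called in tumor cells, 3 higher and 3 lower, with Ift88os at an adjusted p of 0.071, and 0 in TRMs and MDMs. The deviation of replicate 1 from the mean of its genotype was compared between KLG4 and KL over all genes tested. Its correlation was 0.019, -0.060 and 0.054 in tumor cells, TRMs and MDMs. A value near 0 does not show whether same-numbered libraries shared a batch, which was not tested.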
